A study of Mus musculus with 6 samples.

Results

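The 55 genes described here act in S phase or in mitosis, and they were chosen by name: 24 encode proteins of DNA replication and its supply, and 31 encode proteins of G2 and mitosis. Each of the 55 stood on 1 row of the 55359 genes in the table, and all 55 were among the 17728 genes with enough counts to be tested. The libraries hold poly(A) RNA of whole lungs from 6 C57 mouse embryos at E18.5. They comprised 3 libraries with a Prmt5 knockdown genotype label and 3 with a WT genotype label. The series text calls the first group a mesenchymal knockout of Prmt5 specific to Dermo1 (Twist2), while the sample labels say knockdown, and no other allele of either group is named. The pregnant mice of both groups carry the same description in the labels, that of a knockdown in lung mesenchymal cells. Whether the embryos were littermates is not given, so a p-value here speaks only of the variation among these 6 libraries, some of which may be technical. RNA came from the whole lung, of which the mesenchyme targeted by the deletion is a part.

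A cell that is about to divide first loads the MCM helicase onto replication origins, then copies its DNA in S phase, and then condenses, attaches and separates its chromosomes in mitosis. Transcription of the replication genes is switched on by E2F factors before and during S phase. The mitosis genes are held back by the DREAM complex, which binds a promoter element called CHR, and are switched on later by B-MYB and FOXM1. Near birth the lung still contains dividing epithelial, mesenchymal, endothelial and blood cells. Prmt5, an arginine methyltransferase that acts on histones and splicing proteins, is required for proliferation in many cell types.

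Total counts per library ranged from 14383415 to 19262837. Levels are given in CPM, a gene's counts relative to the library's total after scaling with TMM factors, unless FPKM, which also divides by exonic length, is named. A fold change is the knockdown-labelled level over the wild type level, and an adjusted p is corrected over all tested genes. Prmt5 had 39.4, 47.6 and 46.7 CPM in knockdown-labelled libraries 1, 2 and 3 and 46.6, 47.1 and 48.1 CPM in wild type libraries 1, 2 and 3. Its groups overlapped, and the log2 fold change of -0.08 (95% confidence interval -0.29 to 0.13) did not pass edgeR's quasi-likelihood test (adjusted p = 0.682). The directions below therefore rest on the labels. Markers of lung epithelium, lung mesenchyme and endothelium were present in every library, with summed levels of 12554 to 15124 CPM in knockdown-labelled and 11968 to 14808 CPM in wild type libraries for the 6 epithelial markers. Sftpc added the most to that sum. Mean log2 CPM of the 6 markers was 9.89, 9.71 and 9.77 in the knockdown-labelled and 9.83, 9.93 and 9.67 in the wild type libraries. In each group it was highest in the library where the G2 and M genes were lowest, and lowest where they were highest. Ager had 972, 1006 and 847 CPM in the knockdown-labelled libraries and 1524, 1344 and 1296 CPM in the wild type libraries (log2 fold change -0.56, edgeR adjusted p = 0.116). Cdh1 had a log2 fold change of -0.03, and Nkx2-1, Epcam, Sftpc and Sftpb had values from 0.03 to 0.36. The 6 mesenchymal markers summed to 2509, 2165 and 2590 CPM in the knockdown-labelled libraries and 2211, 2406 and 2243 CPM in the wild type libraries, a sum to which Col1a1 added the most (log2 fold change 0.38). The other 5 had negative log2 fold changes, -0.64 for Foxf1, -0.43 for Tbx4, -0.39 for Pdgfra, -0.20 for Tcf21 and -1.14 for Twist2. Their list's mean log2 CPM was 6.85, 6.79 and 6.88 in the knockdown-labelled libraries and 7.29, 7.24 and 7.22 in the wild type libraries, without overlap, and none of the 6 passed the adjusted threshold (edgeR, smallest adjusted p = 0.128). The part of these markers in the levels of the 55 genes was not tested. Knockdown-labelled library 1 stood apart in the 55 genes, as described below, and the medians and spreads are given with and without it. The same library had the lowest Prmt5 level of all, 39.4 CPM, while knockdown-labelled libraries 2 and 3 lay within the wild type range of Prmt5. Leaving it out thus also removes the lowest Prmt5 level. A link between its Prmt5 level and the 55 genes was not tested.

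None of the 55 genes passed the test between the groups. In edgeR's quasi-likelihood test 0 of 55 had an adjusted p under 0.05, where 0.0338% of all tested genes did, and 0 of 55 did so in DESeq2, which called 4.79% of all genes. Without adjustment 1 of 55 had a p under 0.05 (Ung, higher), against 17.0% of all tested genes, which split into 8.48% higher and 8.52% lower. The replication genes had a median log2 fold change of 0.04, with 14 positive and 10 negative. The G2 and M genes had a median of -0.07, with 9 positive and 22 negative, and the median over all tested genes was 0.01. In 0 of 55 genes were all knockdown-labelled libraries above all wild type ones, against 10.8% of tested genes, and in 0 were all of them below, against 12.4%. The standard errors set what could be seen: their median was 0.20 on the log2 scale for the replication genes, 0.27 for the G2 and M genes and 0.15 over all tested genes. A p above the threshold does not show that the groups were alike. The interval for Rfc2, a subunit of the clamp loader, ran from -0.15 to 0.25, while that for the ribonucleotide reductase subunit Rrm2 ran from -0.69 to 1.04.

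**Figure D1:**
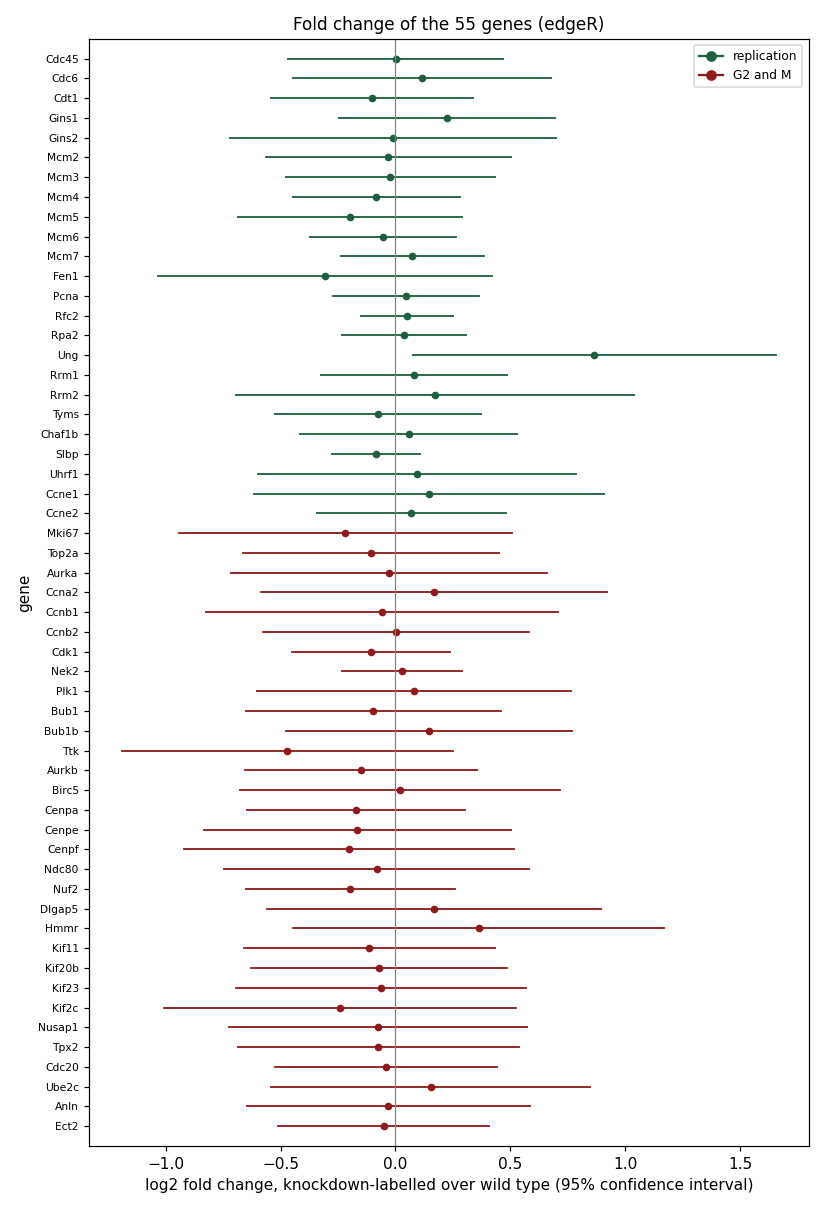
Log2 fold change of each of the 55 genes, knockdown-labelled over wild type, with its 95% confidence interval from edgeR (3 libraries per group). Replication genes are green and stand above the red G2 and M genes. Of the 55 intervals, that of Ung (0.08 to 1.66) does not include 0, and its adjusted p was 0.266.

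The same medians moved with single libraries. Leaving out 1 library at a time gave medians of -0.09 to 0.19 for the replication genes and -0.30 to 0.16 for the G2 and M genes, so the sign of both depended on which libraries entered. Without knockdown-labelled library 1 they were 0.19 and 0.16, and 4 genes (Ung, Ccne2, Ccna2 and Hmmr, all higher) had an unadjusted p under 0.05, with 0 past the adjusted threshold. In that fit 18.1% of all tested genes had an unadjusted p under 0.05, a larger share than that of the 55. Without knockdown-labelled library 2 they were -0.09 and -0.30.

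The licensing factors and the helicase are described first. Cdc6 and Cdt1 load the MCM complex, and Cdc45 with the GINS subunits turns it into the active helicase. Gins1, which had the smallest p of these 5, had 4.18, 5.50 and 5.00 CPM in the knockdown-labelled libraries and 4.37, 3.59 and 4.60 CPM in the wild type libraries. The groups overlapped (log2 fold change 0.22, interval -0.25 to 0.69, edgeR adjusted p = 0.620). The other 4 had log2 fold changes between -0.10 and 0.12. Among the 6 subunits of the MCM ring, Mcm5 had 21.5, 36.4 and 32.8 CPM in the knockdown-labelled libraries and 33.4, 29.8 and 40.7 CPM in the wild type libraries. Its lowest value was in knockdown-labelled library 1 and its highest in wild type library 3, with a log2 fold change of -0.20 (interval -0.69 to 0.29, edgeR adjusted p = 0.681). Mcm4 had 33.5, 48.3 and 48.1 CPM in the knockdown-labelled libraries and 44.5, 42.6 and 50.6 CPM in the wild type libraries. Mcm6 had 47.3, 60.1 and 62.7 CPM in the knockdown-labelled libraries and 61.9, 51.2 and 63.5 CPM in the wild type libraries. For all 6 subunits knockdown-labelled library 1 was the lowest of the 6 libraries. Per length, Mcm4, Mcm6 and Mcm7 stood at 12.4, 12.4 and 12.1 FPKM averaged over all libraries, Mcm3 at 10.3 and Mcm5 at 8.12, and Mcm2 was the lowest at 5.50, although the subunits sit in the ring in equal numbers.

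At the fork, Pcna encodes the sliding clamp of the polymerases and was the most abundant replication gene per length, with a mean of 26.4 FPKM. It had 53.2, 73.3 and 66.5 CPM in the knockdown-labelled libraries and 55.7, 63.1 and 67.9 CPM in the wild type libraries. All wild type values lay within the knockdown-labelled range (log2 fold change 0.05, interval -0.27 to 0.36, edgeR adjusted p = 0.900). Ung, the uracil glycosylase that removes uracil from DNA, was the gene with an unadjusted p under 0.05 (0.0358). It had 4.68, 10.1 and 11.3 CPM in the knockdown-labelled libraries and 4.86, 4.08 and 5.36 CPM in the wild type libraries. Knockdown-labelled libraries 2 and 3 were above every wild type library, and library 1 lay within the wild type range. The log2 fold change was 0.87 (interval 0.08 to 1.66), which did not pass the test over all genes (edgeR adjusted p = 0.266). It ranged from 0.63 to 1.18 with a library left out, and the adjusted p from 0.131 to 0.577. Fen1, which trims Okazaki flaps, was the least abundant gene of the 55. It had 1.60, 1.55 and 2.20 CPM in the knockdown-labelled libraries and 1.60, 2.11 and 2.94 CPM in the wild type libraries, from 193 counts in all (log2 fold change -0.31, edgeR adjusted p = 0.666). Its span in the table overlaps that of Tmem258 on the opposite strand, and the strand setting of the counts is not given in the sources used here, so its level is uncertain. Rfc2 and Rpa2, a subunit of the single-strand binding protein, had log2 fold changes of 0.05 and 0.04.

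In genes of nucleotide and histone supply and of the E cyclins the spread within groups exceeded the difference between them. Rrm2 had 18.52, 49.4 and 37.0 CPM in the knockdown-labelled libraries and 27.5, 23.4 and 42.1 CPM in the wild type libraries. Its highest library was 2.67 times its lowest, while the fold change between the groups was 0.17 on the log2 scale (edgeR adjusted p = 0.860). Its partner Rrm1 and the thymidylate synthase gene Tyms had log2 fold changes of 0.08 and -0.07. Slbp, which binds the stem-loop of histone mRNAs, had 48.4, 54.3 and 56.4 CPM in the knockdown-labelled libraries and 54.0, 57.1 and 57.5 CPM in the wild type libraries. It was the steadiest of the 55, with a highest library 1.19 times its lowest (log2 fold change -0.08, interval -0.28 to 0.11, edgeR adjusted p = 0.654). Chaf1b, of the histone chaperone CAF-1, and Uhrf1, which recruits the maintenance DNA methyltransferase, had log2 fold changes of 0.06 and 0.09. Ccne1, which starts S phase with Cdk2, had 3.51, 7.40 and 8.07 CPM in the knockdown-labelled libraries and 6.16, 4.78 and 6.19 CPM in the wild type libraries (log2 fold change 0.15, edgeR adjusted p = 0.866). Knockdown-labelled library 1 was below and libraries 2 and 3 were above the whole wild type range. Ccne2 showed the same arrangement, with a log2 fold change of 0.07.

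Mki67, the gene of the proliferation antigen Ki-67 that coats mitotic chromosomes, was the most abundant G2 and M gene, with a mean of 21.1 FPKM. It had 112, 267 and 209 CPM in the knockdown-labelled libraries and 218, 186 and 280 CPM in the wild type libraries. The knockdown-labelled libraries averaged 196 ± 78.2 CPM and the wild type libraries 228 ± 47.9 CPM (SD, n = 3 each). The log2 fold change of -0.22 had an interval of -0.94 to 0.51 (edgeR adjusted p = 0.774). Top2a, the topoisomerase that untangles sister chromatids, had a log2 fold change of -0.11.

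The 7 mitotic cyclins and kinases had edgeR adjusted p-values of 0.765 and above. Cdk1, the kinase that drives entry into mitosis, had 33.3, 45.9 and 42.9 CPM in the knockdown-labelled libraries and 45.3, 37.7 and 48.4 CPM in the wild type libraries (log2 fold change -0.11, edgeR adjusted p = 0.765). Its partner Ccnb2 had 17.9, 33.5 and 27.3 CPM in the knockdown-labelled libraries and 24.5, 21.6 and 32.3 CPM in the wild type libraries. The group means of Ccnb2 were 26.2 ± 7.85 and 26.1 ± 5.54 CPM, and the highest library was 1.87 times the lowest. The table also holds 280 counts on a Ccnb2 pseudogene row beside 2511 on Ccnb2, so reads may be shared. Ccna2, Ccnb1, Plk1, Aurka and the centrosomal kinase gene Nek2 had log2 fold changes between -0.06 and 0.17.

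The spindle checkpoint holds anaphase until every chromosome is attached. Its kinase gene Ttk had 5.78, 13.4 and 10.9 CPM in the knockdown-labelled libraries and 12.7, 12.1 and 16.8 CPM in the wild type libraries. This was the most negative log2 fold change of the 55, -0.47 (interval -1.19 to 0.25, edgeR adjusted p = 0.484), and the largest ratio of highest to lowest library, 2.90. Bub1 and Bub1b had log2 fold changes of -0.10 and 0.15. Aurkb, the kinase of the chromosomal passenger complex, had 14.0, 20.4 and 21.4 CPM in the knockdown-labelled libraries and 18.0, 17.9 and 26.0 CPM in the wild type libraries (log2 fold change -0.15, edgeR adjusted p = 0.778). The log2 fold change of Birc5, a partner of Aurkb in that complex, was 0.02.

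All 5 kinetochore genes had negative log2 fold changes, from -0.20 to -0.08, with adjusted p-values of 0.658 and above. Nuf2, of the microtubule-binding Ndc80 complex, had 14.5, 20.9 and 17.4 CPM in the knockdown-labelled libraries and 19.9, 16.1 and 24.5 CPM in the wild type libraries (edgeR adjusted p = 0.658). Cenpf had 25.2, 54.6 and 39.2 CPM in the knockdown-labelled libraries and 43.6, 33.8 and 59.4 CPM in the wild type libraries (log2 fold change -0.20, edgeR adjusted p = 0.791). In both genes the groups overlapped.

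Among the 8 spindle and motor genes the hyaluronan-mediated motility gene Hmmr, a spindle assembly factor, had the smallest p. It had 15.3, 37.0 and 29.0 CPM in the knockdown-labelled libraries and 19.5, 15.6 and 28.0 CPM in the wild type libraries (log2 fold change 0.36, interval -0.44 to 1.17, edgeR adjusted p = 0.641). Kif2c, a kinesin that depolymerises microtubules, had 8.92, 18.47 and 15.2 CPM in the knockdown-labelled libraries and 15.4, 11.8 and 22.99 CPM in the wild type libraries (log2 fold change -0.24, edgeR adjusted p = 0.763). Dlgap5, which stabilises kinetochore fibres, had 10.7, 20.6 and 15.2 CPM in the knockdown-labelled libraries and 13.0, 9.57 and 18.7 CPM in the wild type libraries (log2 fold change 0.17, edgeR adjusted p = 0.837). The groups overlapped in all 3. The motors Kif11, Kif20b and Kif23 and the spindle proteins Tpx2 and Nusap1 had log2 fold changes between -0.11 and -0.06. Genes of the anaphase promoting complex and of cytokinesis closed the list. Cdc20, an activator of that ubiquitin ligase, had 22.4, 38.4 and 31.4 CPM in the knockdown-labelled libraries and 29.9, 27.9 and 37.2 CPM in the wild type libraries (log2 fold change -0.04, edgeR adjusted p = 0.948). Ube2c, its ubiquitin-conjugating enzyme, had 19.8, 44.7 and 32.4 CPM in the knockdown-labelled libraries and 25.9, 24.7 and 36.4 CPM in the wild type libraries (log2 fold change 0.15, edgeR adjusted p = 0.844). Its span overlaps that of the muscle gene Tnnc2, and reads shared between them were not tested. Ect2, which activates RhoA at the division plane, had 24.6, 38.2 and 28.3 CPM in the knockdown-labelled libraries and 28.6, 27.5 and 38.3 CPM in the wild type libraries (log2 fold change -0.05, edgeR adjusted p = 0.928). The contractile ring scaffold gene Anln had -0.03. Spans of 10 of the 55 genes overlap another gene with at least 300 counts, so that without a known strand setting part of their reads could belong to it.

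**Figure D2:**
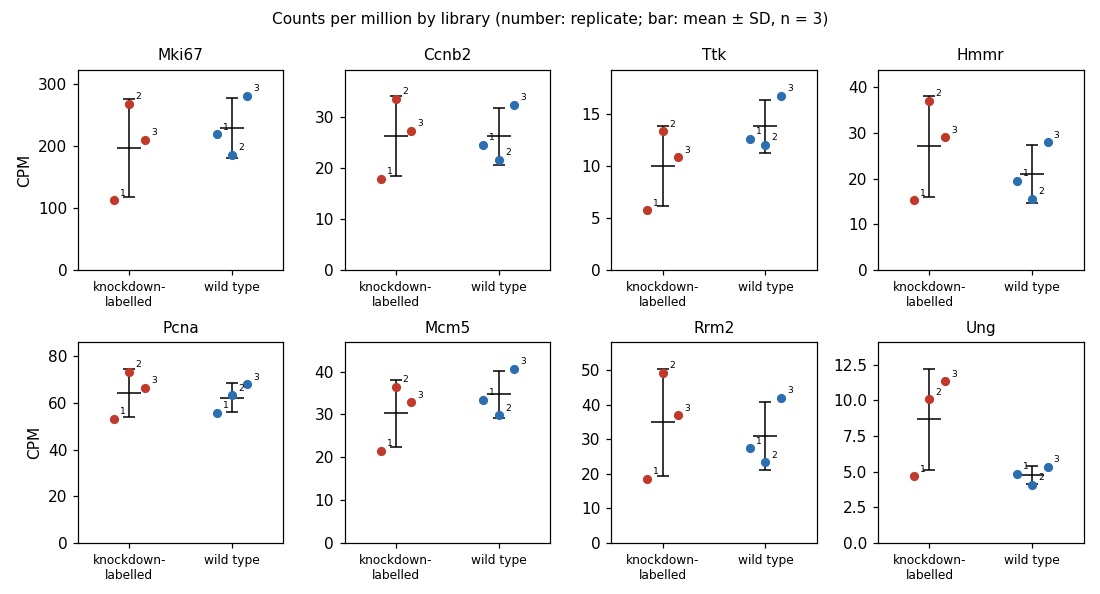
CPM of 8 of the genes in each library, knockdown-labelled to the left and wild type to the right; numbers are replicates, and bars are the mean ± SD of 3 libraries. In all 8 panels the groups overlap, and knockdown-labelled replicate 1 lies below the other knockdown-labelled libraries.

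In 53 of the 55 genes, all but Ung and Gins1, the SD within groups on the log2 scale was larger than the log2 fold change between them. The same count was not made over all tested genes, so it is not a trait shown to be particular to the 55. Knockdown-labelled library 1 had the lowest level of all 6 libraries in 48 of the 55 genes, while it was the lowest in 19.4% of all tested genes. By kind these were 29 of 31 G2 and M genes and 19 of 24 replication genes. The exceptions were Nek2, Dlgap5, Ung, Fen1, Rpa2, Gins1 and Cdc6. The highest level was in knockdown-labelled library 2 or wild type library 3 for all 31 G2 and M genes (18 and 13) and for 18 of 24 replication genes, against 31.0% of all tested genes. In the other 6 replication genes (Cdt1, Gins2, Ung, Chaf1b, Ccne1 and Ccne2) the highest level was in knockdown-labelled library 3. With libraries scaled by total counts alone the same counts were found, 48 lowest in knockdown-labelled library 1 and 49 highest in one of the other two.

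An order was also seen inside each group, among libraries with the same label. Whether it followed differences in Prmt5 level within a group was not tested. Within the knockdown-labelled group the levels ran from library 1 over library 3 to library 2 in 30 of 31 G2 and M genes, all but Aurkb, and in 13 of 24 replication genes, against 19.7% of all tested genes. Within the wild type group library 3 was the highest in 29 of 31 G2 and M genes and 23 of 24 replication genes, against 36.2% of all tested genes. Wild type library 2 was the lowest of its group in 28 of 31 G2 and M genes and in 12 of 24 replication genes, against 34.8%. Genes of 1 process share the same 6 libraries, so these counts describe these libraries and carry no p. In RNA of a whole organ, fewer dividing cells and less of these transcripts per dividing cell cannot be told apart.

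**Figure D3:**
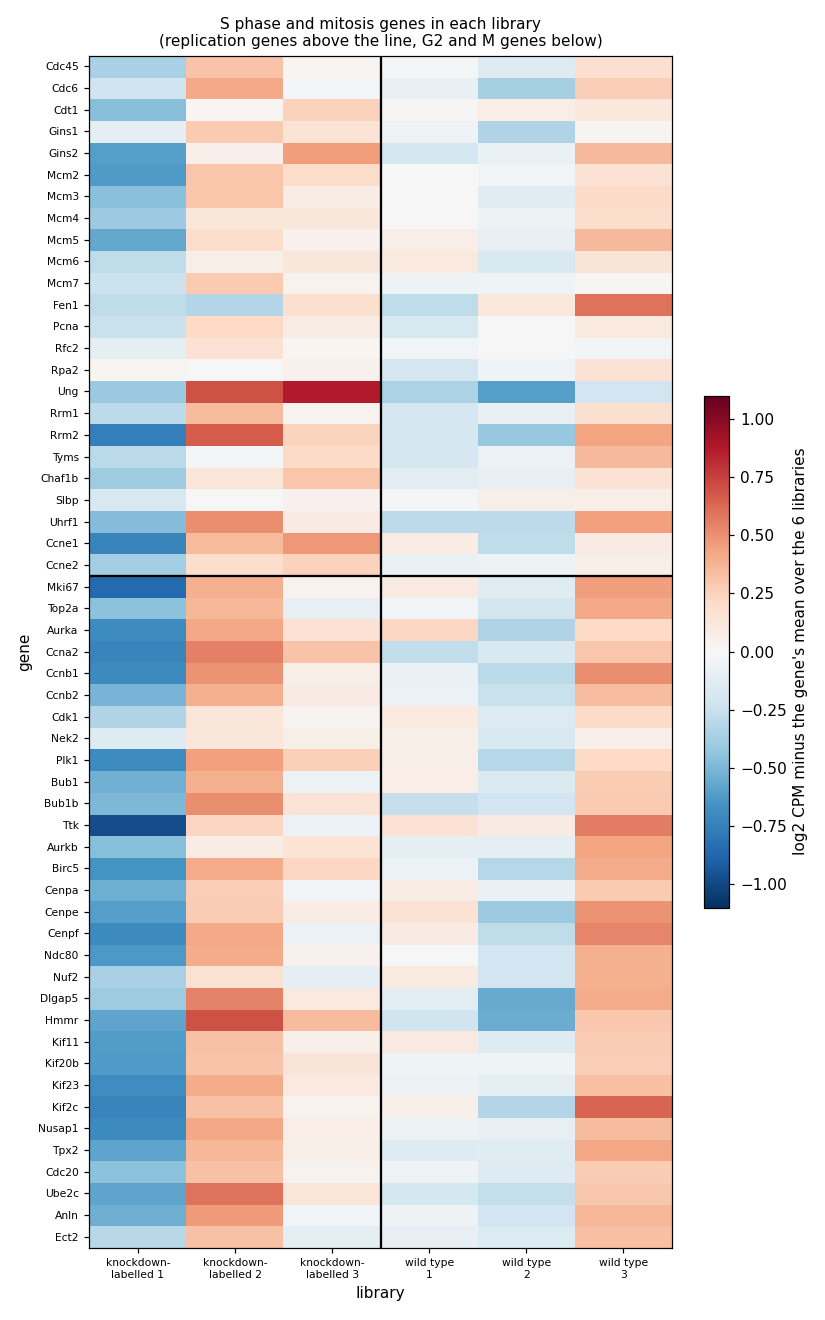
Each row is 1 of the 55 genes and each column 1 library, knockdown-labelled on the left; the colour is log2 CPM minus the gene's mean over the 6 libraries. The first column is blue in most rows and the second and last are red in most rows, most evenly in the G2 and M genes under the horizontal line.

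The G2 and M genes had a wider spread than the replication genes, given here as a description. The highest library exceeded the lowest by a median of 2.06 times in the G2 and M genes and of 1.61 times in the replication genes. Over all genes tested the median was 1.45 times, and 1.34 times among those with a mean of at least 5 CPM. The ratio was above 2 in 19 of 31 G2 and M genes and in 4 of 24 replication genes (Ung, Rrm2, Ccne1 and Gins2), against 24.2% of all tested genes and 10.5% of those with at least 5 CPM. The replication share, 16.7%, was thus below that of all tested genes and above that of tested genes with at least 5 CPM. The SD within a group had a median of 0.43 on the log2 scale in G2 and M genes, 0.27 in replication genes and 0.18 in all tested genes. Much of the spread rested on knockdown-labelled library 1. Without it, a step added after the data were seen, the ratio was above 2 in 2 of 31 G2 and M genes (Hmmr and Dlgap5) and 2 of 24 replication genes (Ung and Rrm2), against 8.32% of tested genes with at least 5 CPM. The median ratio was then 1.54 in G2 and M genes, 1.36 in replication genes and 1.28 in tested genes with at least 5 CPM, and the median SD within groups was 0.28 and 0.16 in the 2 kinds. Without knockdown-labelled library 2 the ratio was above 2 in 12 of 31 G2 and M genes. The steady G2 and M genes were Nek2, with a ratio of 1.22, and Cdk1 with 1.45. The steady replication genes were Slbp (1.19), Rfc2 (1.204) and Rpa2 (1.26).

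**Figure D4:**
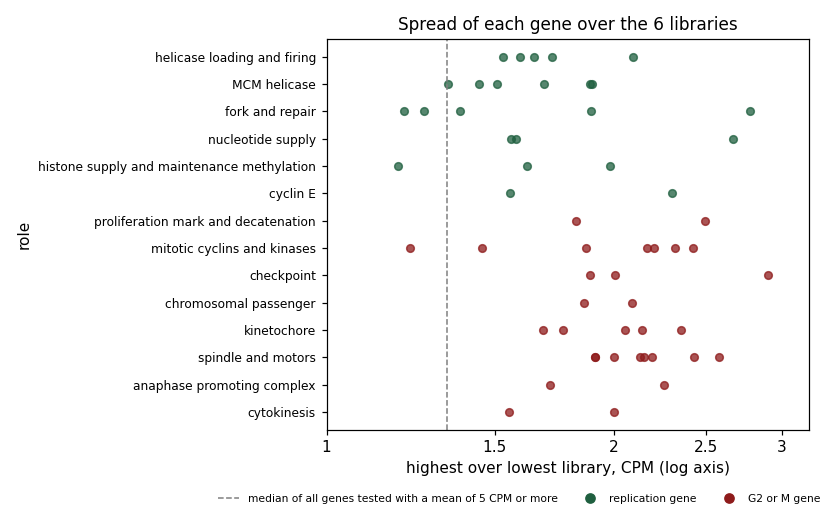
Each point is 1 gene, placed by its highest CPM over its lowest CPM among the 6 libraries (log axis) and by its role. Red G2 and M genes lie mostly near 2 or above, green replication genes mostly below, and the dashed line is the median of all tested genes with a mean of at least 5 CPM, 1.34.

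Set side by side as lists, both kinds placed knockdown-labelled library 1 last. The 31 G2 and M genes had a mean log2 CPM of 4.34, 5.29 and 4.99 in the knockdown-labelled libraries and 4.90, 4.70 and 5.27 in the wild type libraries. The 24 replication genes had 3.92, 4.51 and 4.47 in the knockdown-labelled libraries and 4.20, 4.16 and 4.48 in the wild type libraries. The range over all libraries was 0.95 for G2 and M and 0.59 for replication. Without knockdown-labelled library 1 it was 0.59 for G2 and M and 0.35 for replication. Over all 6 libraries the difference between the group means was -0.09 for G2 and M and 0.02 for replication. The replication mean minus the G2 and M mean was -0.42, -0.78 and -0.51 in the knockdown-labelled libraries and -0.70, -0.54 and -0.79 in the wild type libraries. It averaged -0.57 ± 0.19 in the knockdown-labelled and -0.68 ± 0.13 in the wild type group (SD, n = 3 each), with overlapping values. It was lowest in the libraries with the most G2 and M RNA, knockdown-labelled library 2 and wild type library 3. The G2 and M mean, which had the wider range, is subtracted here, so this relation is partly built into the difference. No p is given for these list values, as the genes were chosen with results of these data known.

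Other cell cycle genes, grouped into 5 lists, were set beside the 55. Of 140 symbols 139 were in the table and 138 were tested, and 0 of 138 passed edgeR's adjusted threshold, with 6 at an unadjusted p under 0.05 (2 higher and 4 lower), 4.35% where 17.0% of all tested genes were. The 57 other mitosis genes had 0 at an unadjusted p under 0.05 and a median log2 fold change of -0.01. Of these 57, 46 were lowest in knockdown-labelled library 1. The 4 with the smallest p were Zwint (0.10), Ncaph (-0.16), Cks1b (0.19) and Spc25 (0.30), given as log2 fold changes, with edgeR adjusted p-values of 0.560 to 0.581. In the 31 genes of polymerases, fork proteins and nucleotide supply 23 were lowest in that library. Their smallest p belonged to Rpa1, with 79.4 ± 7.47 CPM in the knockdown-labelled and 91.6 ± 3.77 CPM in the wild type group (log2 fold change -0.21, edgeR adjusted p = 0.287). Brca2, Timeless and Atad2 followed with log2 fold changes of -0.20, -0.14 and -0.13.

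The remaining 3 lists had narrower ranges of mean log2 CPM over the libraries, 0.27 for origin licensing and firing, 0.29 for E2F, DREAM and MuvB genes and 0.16 for G1 genes. Among the 55 genes, the 5 of helicase loading and firing had a range of 0.57, the 6 MCM subunits 0.64 and the 2 E cyclins 0.92. The 5 fork and repair genes had 0.44, the narrowest of the 14 roles. These roles hold fewer genes than the 3 lists, which can widen a range. Of 19 genes of origin licensing and firing, 9 (47.4%) were lowest in knockdown-labelled library 1, against 19.4% of all tested genes. Orc4, an origin recognition subunit, had 70.7, 66.2 and 64.9 CPM in the knockdown-labelled libraries and 55.7, 57.8 and 55.1 CPM in the wild type libraries. These groups did not overlap, though the log2 fold change of 0.26 did not pass (edgeR adjusted p = 0.168). Gins3 had 5.23, 5.43 and 5.41 CPM in the knockdown-labelled libraries and 6.96, 8.87 and 6.64 CPM in the wild type libraries (log2 fold change -0.48, edgeR adjusted p = 0.241). Its groups did not overlap either, in the opposite direction to Gins1 of the same complex. Cdc7 and Gins4 had log2 fold changes of -0.28 and 0.16.

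Of 16 E2F, DREAM and MuvB genes, 8 (50%) were lowest in knockdown-labelled library 1, also above that 19.4%. E2f7, a repressor of E2F targets, had 14.0, 19.2 and 15.98 CPM in the knockdown-labelled libraries and 22.5, 21.6 and 22.0 CPM in the wild type libraries, without overlap (log2 fold change -0.43, edgeR adjusted p = 0.198). Tfdp2, Lin37 and E2f6 had log2 fold changes of -0.19, 0.15 and 0.15. Of 15 tested G1 cyclins, kinases and inhibitors, 6 (40%) were lowest in that library. Cdkn2b, an inhibitor of Cdk4 and Cdk6, had 21.9, 20.1 and 16.1 CPM in the knockdown-labelled libraries and 30.6, 23.1 and 24.8 CPM in the wild type libraries (log2 fold change -0.43, edgeR adjusted p = 0.237). Cdkn1a, the p21 inhibitor gene, had 81.5, 58.4 and 89.8 CPM in the knockdown-labelled libraries and 45.3, 59.2 and 62.1 CPM in the wild type libraries (log2 fold change 0.47, edgeR adjusted p = 0.272). Its lowest knockdown-labelled value was in library 2, where the G2 and M genes were at their highest. In the wild type group it went the other way, with the highest Cdkn1a value in library 3, which had the most G2 and M RNA of that group. Cdk6 and Ccnd1 had log2 fold changes of -0.23 and -0.35.

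**Figure D5:**
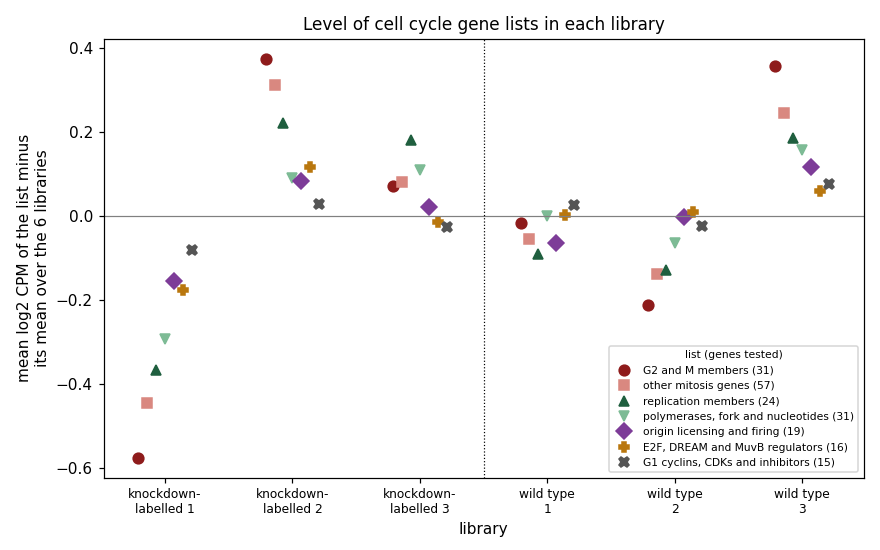
Mean log2 CPM of 7 cell cycle lists in each library, minus the list's mean over the 6 libraries; knockdown-labelled libraries are on the left. G2 and M genes span 0.95, other mitosis genes 0.76, replication genes 0.59 and G1 genes 0.16.

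The promoters of the 2 kinds differed in their letters. RefSeq windows of 300 bases (GRCm38.p6, 250 bases before to 50 after a start) were found for 19 of 24 replication and 27 of 31 G2 and M genes. They were searched on both strands for the E2F site (TTTCCCGC, TTTGGCGC or TTTCGCGC), the CHR element (TTTGAA or TTCGAA) and the CCAAT box (CCAAT), overlapping matches included. A CHR match stood in 21 of 27 G2 and M genes (77.8%), in 4 of 19 replication genes (21.1%) and in 21.7% of all 27025 genes with a window. Within 40 bases of the start, a limit set after the positions were seen, it stood in 19 of 27 and in 1 of 19, against 5.25% of all. An E2F match stood in 1 of 27 G2 and M genes (3.70%), in 7 of 19 replication genes (36.8%) and in 2.12% of all. At least 2 CCAAT boxes stood in 15 of 27 and in 9 of 19, against 13.3% of all, and CHR with CCAAT in 17 of 27 and in 3 of 19, against 8.61%. These are counts of letters, not measured binding, and a window without a match says only that these letters are not in it.

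Windows are printed 5′ to 3′ on the gene's strand with the matches in capitals, to show where the elements stand in each kind of gene. They are the 3 genes of each kind with the smallest p whose window holds a match, and Mcm6 and Ccnb2, which were added after their matches were seen. Mcm5 lies at chr8:75109259-75109558 on the plus strand and holds 2 overlapping E2F matches and 3 CCAAT boxes. Mcm6 lies at chr1:128359656-128359955 on the minus strand, with 3 E2F matches, of which 2 overlap, and 2 CCAAT boxes. Slbp, the steadiest gene, lies at chr5:33652525-33652824 on the minus strand and holds 3 CCAAT boxes and neither of the other elements. Fen1 has 2 windows in the table, of which the one printed, at chr19:10204344-10204643 on the minus strand, holds 1 CHR match 124 bases before the start, and the other holds none of the elements.
Mcm5: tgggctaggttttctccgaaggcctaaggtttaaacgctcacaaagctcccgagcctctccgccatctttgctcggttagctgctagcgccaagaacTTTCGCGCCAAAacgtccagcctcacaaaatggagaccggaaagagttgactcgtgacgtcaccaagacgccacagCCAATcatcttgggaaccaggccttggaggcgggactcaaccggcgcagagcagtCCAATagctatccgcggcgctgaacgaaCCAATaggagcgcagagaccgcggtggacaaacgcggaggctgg
Mcm6: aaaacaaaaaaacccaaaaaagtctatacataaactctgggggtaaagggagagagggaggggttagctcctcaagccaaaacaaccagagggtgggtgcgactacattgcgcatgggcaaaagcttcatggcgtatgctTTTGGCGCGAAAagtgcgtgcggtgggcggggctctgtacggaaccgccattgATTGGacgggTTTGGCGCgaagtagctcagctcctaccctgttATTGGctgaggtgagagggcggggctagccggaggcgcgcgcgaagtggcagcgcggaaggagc
Slbp: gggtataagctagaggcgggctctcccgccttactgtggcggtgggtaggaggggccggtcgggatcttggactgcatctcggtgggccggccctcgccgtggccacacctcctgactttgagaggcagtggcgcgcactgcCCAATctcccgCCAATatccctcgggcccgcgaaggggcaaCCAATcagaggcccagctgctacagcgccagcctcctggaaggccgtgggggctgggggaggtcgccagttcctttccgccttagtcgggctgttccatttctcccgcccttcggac
Fen1: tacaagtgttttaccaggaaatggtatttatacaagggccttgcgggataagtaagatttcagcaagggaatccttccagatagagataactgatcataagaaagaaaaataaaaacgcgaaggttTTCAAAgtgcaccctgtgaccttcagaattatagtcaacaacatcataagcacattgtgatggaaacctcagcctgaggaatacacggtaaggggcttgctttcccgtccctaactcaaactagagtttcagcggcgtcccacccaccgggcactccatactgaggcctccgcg

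The 4 G2 and M windows printed here, chosen because they hold matches, have CCAAT boxes before the start and a CHR match close to it. Ttk lies at chr9:83834439-83834738 on the plus strand, with 2 CCAAT boxes and a CHR match 7 bases after the start. Hmmr lies at chr11:40733388-40733687 on the minus strand, with 5 CCAAT boxes and a CHR match 8 bases after the start. Cenpa lies at chr5:30666636-30666935 on the plus strand, with 2 CCAAT boxes and a CHR match 16 bases after the start. Ccnb2 lies at chr9:70421505-70421804 on the minus strand, with 3 CCAAT boxes and 2 CHR matches, of which 1 lies 4 bases after the start.
Ttk: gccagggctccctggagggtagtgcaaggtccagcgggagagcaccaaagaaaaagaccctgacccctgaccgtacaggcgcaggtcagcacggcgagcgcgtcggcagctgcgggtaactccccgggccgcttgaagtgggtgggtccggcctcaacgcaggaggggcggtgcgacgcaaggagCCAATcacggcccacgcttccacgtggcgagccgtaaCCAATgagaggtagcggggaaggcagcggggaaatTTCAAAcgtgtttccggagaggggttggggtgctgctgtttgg
Hmmr: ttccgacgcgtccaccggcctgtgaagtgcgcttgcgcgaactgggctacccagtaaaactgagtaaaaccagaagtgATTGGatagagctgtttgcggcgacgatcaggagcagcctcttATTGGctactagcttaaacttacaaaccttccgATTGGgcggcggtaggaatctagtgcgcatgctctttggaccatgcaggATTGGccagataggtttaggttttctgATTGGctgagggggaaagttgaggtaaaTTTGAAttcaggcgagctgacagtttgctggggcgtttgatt
Cenpa: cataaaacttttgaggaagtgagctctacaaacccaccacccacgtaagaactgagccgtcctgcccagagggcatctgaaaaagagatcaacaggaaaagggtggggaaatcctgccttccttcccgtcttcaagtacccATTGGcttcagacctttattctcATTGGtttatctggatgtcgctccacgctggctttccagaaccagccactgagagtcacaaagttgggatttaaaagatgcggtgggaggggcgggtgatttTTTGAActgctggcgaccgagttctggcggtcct
Ccnb2: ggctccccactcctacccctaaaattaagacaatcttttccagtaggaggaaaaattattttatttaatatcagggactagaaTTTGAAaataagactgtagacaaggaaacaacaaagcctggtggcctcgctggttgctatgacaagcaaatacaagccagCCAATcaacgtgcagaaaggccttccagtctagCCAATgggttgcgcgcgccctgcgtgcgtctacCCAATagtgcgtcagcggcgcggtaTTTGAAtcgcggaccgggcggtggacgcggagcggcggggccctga

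Markers of other cell types also differed between libraries. The summed level of 18 heart muscle genes was 4986, 14534 and 4379 CPM in the knockdown-labelled libraries and 607, 714 and 3633 CPM in the wild type libraries. All 18 had counts in every library, apart from Nppb, which had 0 counts in wild type libraries 1 and 2. The 2 libraries with the most G2 and M RNA, knockdown-labelled library 2 and wild type library 3, were also the highest of their groups in heart muscle RNA. Knockdown-labelled library 1, the lowest in G2 and M RNA, was the second highest of all in heart muscle RNA. With the heart muscle level as a covariate the median log2 fold change was -0.25 for the replication genes and -0.60 for the G2 and M genes, and 0 of 55 passed the adjusted threshold. In that fit 9 genes had an unadjusted p under 0.05, all lower (Ttk, Kif2c, Cenpf, Top2a, Anln, Tpx2, Uhrf1, Nuf2 and Ect2), against 7.53% of all genes, with adjusted p-values of 0.651 and above. Every knockdown-labelled library had more heart muscle RNA than every wild type one, so that covariate takes up part of the label. The part of heart muscle RNA in the levels of the 55 genes was not tested. The 6 leukocyte markers summed to 713, 787 and 723 CPM in the knockdown-labelled libraries and 662, 790 and 636 CPM in the wild type libraries, mostly from Lyz2. Their mean log2 CPM was 5.24, 5.46 and 5.12 in the knockdown-labelled libraries and 4.91, 4.87 and 5.11 in the wild type libraries. These means did not overlap, but by a narrow margin, 5.117 in knockdown-labelled library 3 and 5.108 in wild type library 3. The summed levels of the 6 markers did overlap. All had positive log2 fold changes, from 0.01 (Csf1r) to 0.72 (Ptprc), and none passed (edgeR, smallest adjusted p = 0.243). The part of leukocytes in the levels of the 55 genes was not tested. The 10 erythroid symbols, of which 9 were found, summed to 3250, 3380 and 3545 CPM in the knockdown-labelled libraries and 3198, 3770 and 3287 CPM in the wild type libraries. Mean log2 CPM of the 8 tested was 6.12, 5.60 and 4.76 in the knockdown-labelled and 5.64, 6.14 and 5.56 in the wild type libraries. It was highest in the library of each group with the least G2 and M RNA. Hba-a2 had 0.82 CPM in knockdown-labelled library 3. The part of erythroid cells in the levels of the 55 genes was not tested. All 5 endothelial markers were lower on average in the knockdown-labelled group, with sums of 1475, 1811 and 1411 CPM in the knockdown-labelled libraries and 2412, 2156 and 2119 CPM in the wild type libraries, and 0 of 5 passed (edgeR, smallest adjusted p = 0.112, 5 at an unadjusted p under 0.05). Their part in the levels was not tested either.

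By Ddx3y, a Y-linked gene, the male libraries were knockdown-labelled 1 and 3 and wild type 1, with 2190, 2078 and 1950 counts, against 0 to 2 counts in the others. The female libraries thus held the 2 with the most G2 and M RNA, knockdown-labelled 2 and wild type 3, and also wild type 2, the lowest of its group. With sex as a covariate the medians were 0.08 for the replication genes and 0.03 for the G2 and M genes, and 0 of 55 passed (1 at an unadjusted p under 0.05). The part of sex in the order of the libraries was not tested.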

How the data were processed

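Poly(A) RNA of 6 lungs was sequenced as paired ends, per the labels' protocols. Tools listed are HISAT2 2.0.1, HTSeq 0.6.1 and cutadapt 1.9.1, per the submitters' processing notes, with no roles. No source used here gives the genome build or the strand setting. The authors deposited raw counts per gene and library. The deposited FPKM values, per the file headers, equalled count over total count and exonic length within 0.005.

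Counts were tested with edgeR 4.0.16 in R 4.3.3 (filterByExpr, TMM, quasi-likelihood test with the group as the only term, library totals over the whole table), with Benjamini-Hochberg adjustment over all 17728 tested genes and a threshold of 0.05. Standard errors are the log2 fold change over the root of F, and intervals cover 95%. The code was tested on simulated counts. With 3 libraries per group the smallest exact permutation p is 0.1, so none is given. Total counts of 14383415 to 19262837 and a common biological coefficient of variation of 21.8% set the precision. DESeq2 1.42.0, limma 3.58.1 on log2(FPKM + 1) and log2(FPKM + 0.1) of genes with a mean of at least 1 FPKM, other scalings and filters, covariates and leaving out each library were alternatives. Replicate numbers follow accession order and pair nothing.

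Values in every library are given for the gene with the smallest p in each of 14 roles, the 5 most positive and 5 most negative fold changes and the 3 most abundant genes of each kind. From each other list the 4 smallest p are named. Cenpa has its promoter printed by the rule for promoters. The members and lists were chosen with earlier results of these data known. Gene names are those of the table, and its coordinates were used only to find overlapping gene spans.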

Additional observations from a re-analysis of the deposited data

How the results depend on the processing

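Under 17 other settings 0 of the 55 genes passed the adjusted threshold, and the 23 genes with values for every library gave 379 fold changes, of which 18 moved by more than the gene's spread within groups, all 18 with heart muscle level as a covariate. Of these fold changes 40 had the other sign, and 5 genes kept their sign throughout. Heart muscle level as a covariate moved the median to -0.25 for replication genes and -0.60 for G2 and M genes. Their difference was 0.35 (0.11 without it). With it 9 of the 55 had an unadjusted p under 0.05, against 1 in the main fit. Over all tested genes these shares were 7.53% and 17.0%. Every knockdown-labelled library had more heart muscle RNA than every wild type one, so that covariate takes up part of the label. Of the 55 this count was 0 with limma on log2(FPKM + 1) and on log2(FPKM + 0.1), against 17.5% of all genes in each fit. It was also 0 at a mean FPKM of at least 5, against 19.3%. With a library left out it was 0 to 4, against 9.13% to 18.1%. Leaving out a library gave medians of -0.09 to 0.19 for replication genes and -0.30 to 0.16 for G2 and M genes. Over all genes 6 passed. This count was 849 in DESeq2, 81 with no filter, 15 with robust edgeR, 3 with limma on log2(FPKM + 0.1), 2 at a mean FPKM of at least 5, 1 with heart muscle level and 0 with embryo sex as a covariate, and 0 to 17 with a library left out (17 without wild type replicate 3). The cause was not tested. No paired analysis was possible because the labels carry no shared replicate numbers. The spread of the genes was smaller without knockdown-labelled replicate 1, as given beside it. Genes with few counts, such as Fen1, are limited by depth.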
